A study of Mus musculus with 12 samples.

Results

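The genes described here are 40 mouse genes of DNA replication and of E2F control, measured in 4 lines of 4T1 cells kept in low serum. They were chosen by gene symbol from a list of replication proteins and known E2F targets, and each is represented by the probe set that names that gene alone and has the highest mean over all arrays. All 40 were found among the 19937 genes with such a probe set. DNA replication starts when the origin recognition complex, Cdc6 and Cdt1 load the Mcm2 to Mcm7 helicase onto origins, and the helicase then fires with Cdc45, the GINS complex and Mcm10. Polymerases, a sliding clamp and its loader, and enzymes that join lagging-strand fragments copy the strands, while ribonucleotide reductase, thymidylate synthase and thymidine kinase supply nucleotides. Many of these genes are transcribed late in G1 by E2F factors. The retinoblastoma family holds these factors in check until cyclin-dependent kinases are active. Low serum is a classical way to hold cells before that step.

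4T1 is a mouse mammary carcinoma cell line of BALB/cfC3H background. The groups were a control line and stable lines named FL, mutB1 and ΔSAP for their constructs of Mkl1, now called Mrtfa, which binds actin and works with the transcription factor Srf. The FL label is taken to mean the full-length protein, mutB1 as Mkl1 with a mutated B1 region, known for contact with Srf, and ΔSAP as Mkl1 without its SAP domain, a putative DNA-binding domain. All 4 lines spent 48 h in DMEM with 0.03% FCS before RNA was taken, and 3 arrays were made of each, 12 in all, from 100 ng of total RNA per array. Neither the control line's vector nor the promoter of the constructs is given in the sources used here. Each construct is represented by a single stable line, so an effect of the construct and a difference between lines cannot be told apart. Every p-value rests on the spread of arrays within lines, pooled over the 4 lines, and not on a spread between lines of 1 construct. The study's design text names FL against mutB1 and FL against ΔSAP as its comparisons, and all 6 pairs of lines are given here.

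The construct probe set Mrtfa read 9.27 ± 0.01 for control (mean ± SD, n = 3 arrays here and below), 12.08 ± 0.06 for FL, 11.29 ± 0.11 for mutB1 and 11.92 ± 0.04 for ΔSAP, on the log2 scale of the arrays. FL therefore carried more Mrtfa signal than mutB1, by 0.79 (limma adjusted p = 2.79e-06), and did not pass the test against ΔSAP (0.16, adjusted p = 0.0776), whereas Srf passed it in none of the 6 pairs. The epithelial keratins Krt8 and Krt18 were bright in every line, with line means of 12.93 to 13.20 and 12.55 to 12.88. The other epithelial markers listed, Krt7, Krt19, Cdh1 and Epcam, were lowest in mutB1. Their line means there were 8.97, 6.18, 8.08 and 6.41. Ptprc, the pan-leukocyte antigen, lay between 4.43 and 4.73 on every array, and Cd68, a lysosomal protein rich in macrophages, had line means of 8.53 to 9.58. The line means of 5 endothelial markers lay between 4.03 and 5.76. Array medians over all probe sets ran from 6.35 to 6.46, and arrays correlated at r = 0.9952 to 0.9974 within a line and 0.9876 to 0.9946 between lines.

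The promoters of 5 members are printed. Among members with letters of an E2F site and a single promoter window listed, these had the widest gap between their highest and lowest line mean. They act at different steps of replication. All were called higher in mutB1 than in control, as were 36 of the 40 members and 5.83% of all probe sets. Orc1, Cdc6, Rfc3 and Mcm6 were also called higher than control in FL and ΔSAP, and Pola1 in ΔSAP. The 5 were picked after these values were seen. The windows come from RefSeq (GRCm38.p6) and run from 250 bases before to 50 bases after the annotated start, in the direction of transcription. Capitals mark matches on either strand to the E2F site letters TTTCCCGC, TTTGGCGC, TTTCGCGC or TTTGCCGC. In Mcm6 a TTTGGCGC and a reversed TTTCGCGC overlap. Of the genes shown, Orc1 and Cdc6 act in origin licensing, Rfc3 loads the clamp, Pola1 starts new strands and Mcm6 is a helicase subunit.
Orc1, chr4:108579204-108579503, plus strand: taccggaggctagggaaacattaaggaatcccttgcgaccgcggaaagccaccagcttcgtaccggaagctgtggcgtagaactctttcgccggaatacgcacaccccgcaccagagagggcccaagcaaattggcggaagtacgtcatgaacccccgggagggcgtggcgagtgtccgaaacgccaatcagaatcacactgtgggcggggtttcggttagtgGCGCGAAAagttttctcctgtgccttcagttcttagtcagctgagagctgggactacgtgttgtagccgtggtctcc
Cdc6, chr11:98907901-98908200, plus strand: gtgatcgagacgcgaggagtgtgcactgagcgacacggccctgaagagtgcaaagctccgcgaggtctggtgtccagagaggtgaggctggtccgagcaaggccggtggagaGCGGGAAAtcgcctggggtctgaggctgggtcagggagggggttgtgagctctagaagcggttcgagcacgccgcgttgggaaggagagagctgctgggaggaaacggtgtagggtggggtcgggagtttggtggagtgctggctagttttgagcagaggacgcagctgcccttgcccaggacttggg
Rfc3, chr5:151651159-151651458, minus strand: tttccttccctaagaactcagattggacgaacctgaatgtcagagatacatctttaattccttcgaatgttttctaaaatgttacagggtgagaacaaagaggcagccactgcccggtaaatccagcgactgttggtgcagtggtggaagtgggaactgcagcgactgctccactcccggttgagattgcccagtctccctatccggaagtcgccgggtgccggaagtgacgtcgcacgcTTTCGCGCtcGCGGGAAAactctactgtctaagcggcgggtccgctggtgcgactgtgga
Pola1, chrX:93632106-93632405, minus strand: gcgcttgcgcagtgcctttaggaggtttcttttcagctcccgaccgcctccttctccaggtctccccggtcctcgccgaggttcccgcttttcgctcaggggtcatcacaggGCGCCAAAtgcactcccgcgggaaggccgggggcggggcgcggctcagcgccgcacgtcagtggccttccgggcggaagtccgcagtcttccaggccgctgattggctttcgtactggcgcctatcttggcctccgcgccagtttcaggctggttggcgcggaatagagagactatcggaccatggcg
Mcm6, chr1:128359656-128359955, minus strand: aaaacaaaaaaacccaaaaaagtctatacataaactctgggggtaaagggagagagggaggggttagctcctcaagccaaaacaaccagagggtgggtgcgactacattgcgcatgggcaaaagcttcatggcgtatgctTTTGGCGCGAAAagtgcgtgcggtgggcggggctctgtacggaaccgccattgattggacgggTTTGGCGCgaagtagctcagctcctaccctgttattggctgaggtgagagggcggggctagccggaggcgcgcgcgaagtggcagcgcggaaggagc

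Windows were listed for 35 of the 40 members, and Mcm4, Gins1, Gins2, Pole and Ccne2 had none listed. At least 1 of these E2F letters was found in 14 of the 35 members (40%), namely Cdc6, Cdt1, Dnmt1, E2f2, Lig1, Mcm3, Mcm5, Mcm6, Mcm7, Orc1, Pola1, Pold1, Rfc3 and Uhrf1. Among all 27025 genes with a window the share was 2.6%. The members were chosen in part as known E2F targets, so the choice itself favours a higher share. The members hold 21 matches in all, overlapping ones included, and their first bases have a median position of -27 relative to the start. Searched on either strand as well, CCAAT, the NF-Y letters, occurred in 22 members (62.9%) against 41.1% of all genes. The letters TTTGAA of the CHR element, known from late cell cycle genes, occurred in 6 members (17.1%) against 20.2%, and a CArG box, the Srf motif, in 1 member, Tyms (2.86%), against 1.81%. The gap between the highest and the lowest line mean had a median of 0.37 over the 14 members with E2F letters and 0.35 over the 21 without, and the ranges overlapped (0.23 to 0.67 and 0.19 to 0.98). The search covered exact letters in the listed windows only. A member without a match is therefore not shown to lack an E2F site, and the 21 include Ccne1, E2f1 and Pcna.

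As a set, the members were lowest in the control line and highest in mutB1, with FL and ΔSAP between them. For each member the deviation of an array from that gene's mean over the 12 arrays was taken. The median deviation over the 40 members was -0.18, -0.23 and -0.18 on the control arrays, 0.01, 0.03 and 0.03 on FL, 0.12, 0.16 and 0.12 on mutB1 and 0.02, 0.04 and 0.04 on ΔSAP. All 3 control arrays thus lay below every other array and all 3 mutB1 arrays above, while FL and ΔSAP arrays overlapped. Over the 9814 genes at least as bright as the dimmest member, a reference chosen after the values were seen, the same medians stayed between -0.02 and 0.02. The control line had the lowest mean of the 4 for 36 of the 40 members, against 23.9% of the bright genes, and mutB1 had the highest for 28, against 24%. The differences were small: no member reached 2-fold, which is 1 log2 unit, in any pair. The study's own filter, which adds a 2-fold minimum and a minimum mean log2 value of 4, thus called 0 members, and it called 1.6% of all probe sets in FL against mutB1, 0.503% in FL against ΔSAP, 1.83%, 1.21% and 1.34% in FL, mutB1 and ΔSAP against control, and 1.42% in ΔSAP against mutB1. The arrays measured whole cultures, so more cells in S phase and more of a transcript per cell cannot be told apart.

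**Figure D1:**
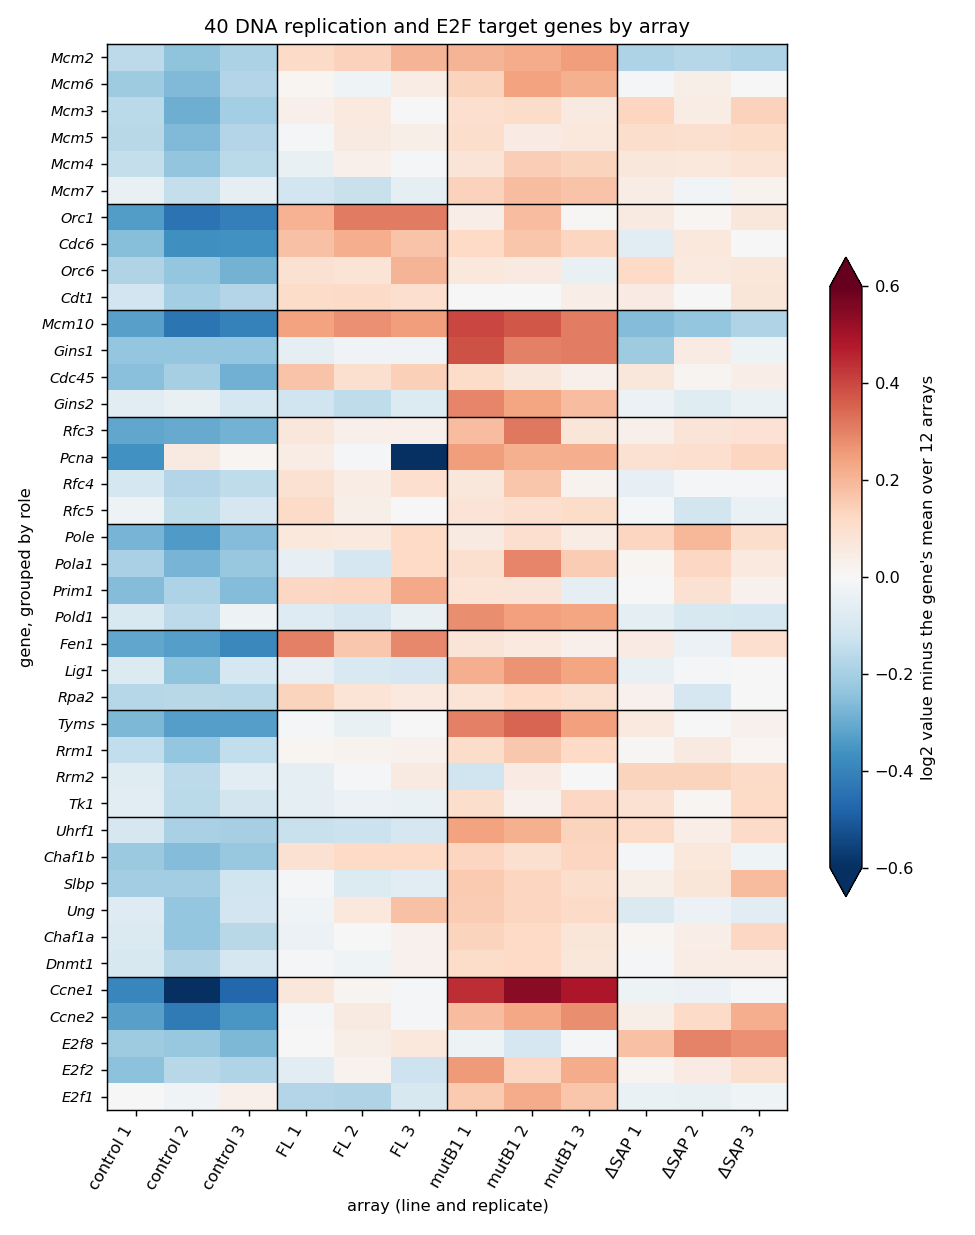
Heat map of the 40 genes (rows, grouped by role) on the 12 arrays (columns, line and replicate). Colour is the log2 value minus that gene's mean over the 12 arrays. The control columns lie below the gene means for nearly every gene and the mutB1 columns above them, with median deviations of -0.23 to -0.18 and 0.12 to 0.16.

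A member was called higher or lower in a pair at a limma p of at most 0.01 after Benjamini-Hochberg adjustment over the 34760 probe sets, whatever its fold. Differences between lines are given ± SE. In mutB1 against control 36 of the 40 members were higher and 0 lower, where 5.83% of all probe sets were higher and 6.89% lower, and 15.1% and 18.4% of the bright genes. At an unadjusted limma p under 0.05, 38 were higher and 0 lower. The shares of all probe sets and of bright genes, here and below, are for the adjusted p. Counts at the unadjusted p have no such share beside them and cannot be set against these. In ΔSAP against control 26 were higher and 0 lower (33 and 0 at the unadjusted p), against 6.96% and 7.83% of all probe sets and 16.4% and 20.7% of the bright genes. In FL against control 23 were higher and 1, E2f1, was lower, against 9.61% and 10.4%, and 22.2% and 27.3% of the bright genes. These 3 comparisons share the control arrays. Their median differences over the members were 0.31 for mutB1, 0.24 for ΔSAP and 0.23 for FL, where the bright genes had -0.01, -0.02 and -0.03. After each array was centred on its median 16 members were higher in ΔSAP, and in a fit of only the 6 arrays compared 11 were. The other 2 counts moved as well. Over all alternatives other than leaving out an array, 24 to 38 members were higher than control in mutB1. The ranges were 11 to 29 in ΔSAP and 16 to 29 in FL. The E2f1 call in FL was lost without any single array except FL 3 (adjusted p up to 0.0413).

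FL exceeded mutB1 in line mean for 10 of the 40 members, and ΔSAP exceeded mutB1 for 8. The test called a minority of the differences in both pairs. In FL against mutB1, 11 members were lower and 0 higher, against 9% and 8.82% of all probe sets. At an unadjusted limma p under 0.05, 22 were lower and 4 higher, counts without such a share beside them. The 11 are Mcm6, Mcm7, Gins1, Gins2, Pold1, Lig1, Tyms, Uhrf1, E2f1, E2f2 and Ccne1. In ΔSAP against mutB1, 10 were lower and 1, E2f8, was higher, against 8% and 7.07% of all probe sets. At an unadjusted limma p under 0.05, 21 were lower and 2 higher, again without such a share. The 10 are Mcm2, Mcm6, Mcm10, Gins1, Gins2, Pold1, Lig1, Tyms, E2f1 and Ccne1. The bright genes had shares of 23.1% lower in FL against mutB1 and 20.2% lower in ΔSAP against mutB1, near the members' 27.5% and 25%. Of the bright genes 20.9% and 16.9% were higher, beside 0 and 1 of the 40 members. The median differences were -0.11 in both pairs, with -0.01 in both for the bright genes.

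The test called 4 members between FL and ΔSAP. In FL against ΔSAP, 2 members, Mcm2 and Mcm10, were higher and 2, Uhrf1 and E2f8, were lower, where 5.73% and 5.7% of all probe sets were, and 15.3% and 15.2% of the bright genes. At an unadjusted limma p under 0.05, 12 members were higher and 7 lower, counts that have no share of all probe sets beside them. The median difference was -0.03. The calls of Mcm2 and Mcm10 were kept under each alternative. Both lower calls were lost on leaving out FL 1, FL 2, FL 3 or ΔSAP 3, and under the replicate block, with 0 lower members in each case. Leaving out control 2, control 3, mutB1 2, ΔSAP 1 or ΔSAP 2 left 1. The split was 2 higher to 1 lower after median centring and 4 to 2 after a further quantile normalization. Across the 4 lines, the limma F test called 37 of the 40 members at the same threshold, against 27.7% of all probe sets and 68.3% of the bright genes, and the other 3 were Pcna, Rfc5 and Rrm2.

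**Figure D2:**
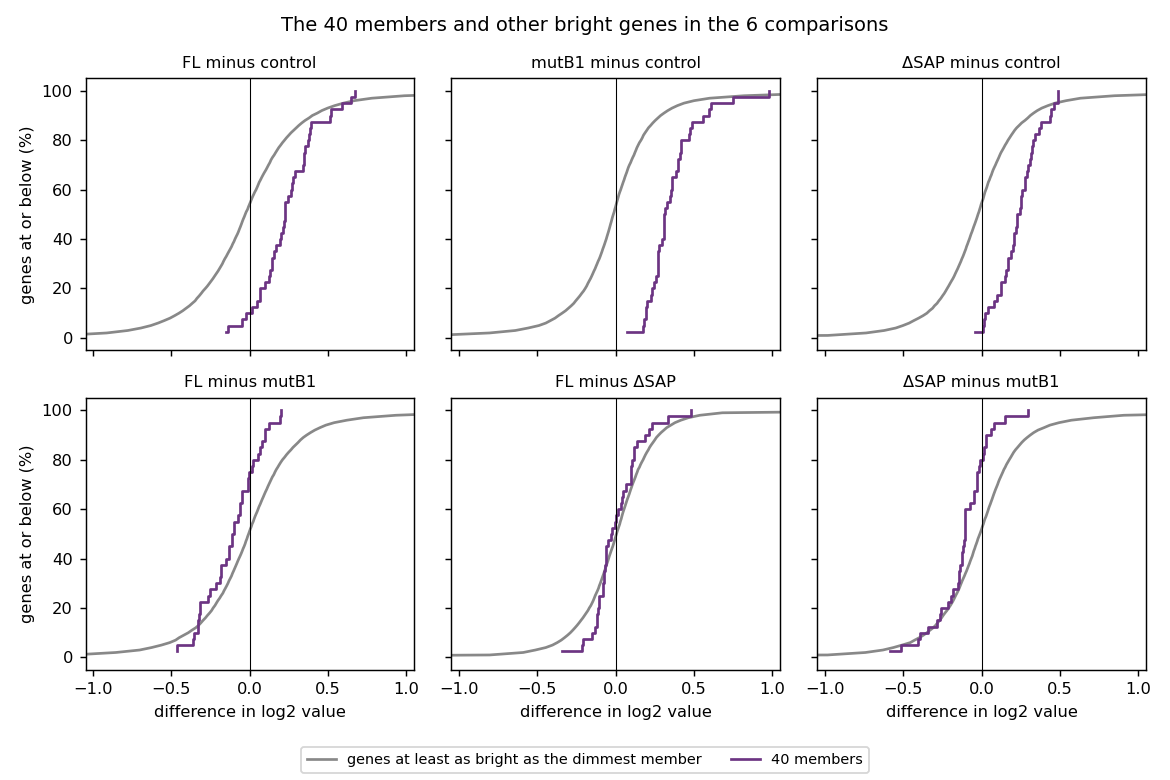
Cumulative share of genes (y axis, percent) at or below a given difference in log2 value (x axis) in each of the 6 pairs of lines, for the 40 members (steps) and the 9814 bright genes (smooth line). Over most of their course the member curves lie to the right of the bright genes in the 3 comparisons with control, with medians of 0.23 to 0.31, and slightly to the left in FL minus mutB1 and ΔSAP minus mutB1, with medians of -0.11.

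All 4 genes of origin licensing were higher than control in all 3 construct lines, and each had its highest mean in FL. Orc1 read 8.55, 8.44 and 8.47 on the control arrays, 9.09, 9.19 and 9.19 on FL, 8.92, 9.07 and 8.89 on mutB1 and 8.94, 8.90 and 8.95 on ΔSAP, so that control arrays were the lowest and FL arrays the highest, without overlap with any other line. For Orc1, the ATPase subunit of the origin recognition complex, FL exceeded control by 0.67 ± 0.05 (adjusted p = 5.96e-06), and mutB1 and ΔSAP did so by 0.47 and 0.44 (adjusted p = 0.000131 and 0.00019). FL lay above mutB1 by 0.20 and above ΔSAP by 0.23, and neither passed the test (adjusted p = 0.0203 and 0.0137). Cdc6 read 9.04, 8.92 and 8.93 on the control arrays, 9.47, 9.51 and 9.46 on FL, 9.41, 9.46 and 9.42 on mutB1 and 9.23, 9.36 and 9.29 on ΔSAP. Control arrays of Cdc6, a loader of the helicase, lay below all others, and FL and mutB1 arrays lay above those of ΔSAP. The FL difference from control was 0.52 ± 0.04 (adjusted p = 9.9e-06) for Cdc6, beside 0.47 for mutB1 and 0.33 for ΔSAP (adjusted p = 3.63e-05 and 0.00037).

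Orc6 read 10.20, 10.15 and 10.10 on the control arrays, 10.47, 10.46 and 10.58 on FL, 10.45, 10.43 and 10.34 on mutB1 and 10.50, 10.44 and 10.45 on ΔSAP. Every control array of Orc6, the smallest subunit of the complex, lay below every other array, and the construct lines overlapped in part. FL exceeded control by 0.36 ± 0.05 (adjusted p = 0.000247), ΔSAP by 0.31 (adjusted p = 0.000862) and mutB1 by 0.26 (adjusted p = 0.00349). Cdt1, which brings the helicase to origins, had line means of 11.08 ± 0.04 for control, 11.35 ± 0.01 for FL, 11.26 ± 0.02 for mutB1 and 11.28 ± 0.04 for ΔSAP. Its differences from control were 0.27, 0.18 and 0.21 for FL, mutB1 and ΔSAP (adjusted p = 0.000181, 0.00484 and 0.00183). The mutB1 call of Orc6 was lost without control 2, control 3, mutB1 1 or mutB1 2 (adjusted p up to 0.018), and that of Cdt1 without control 2, control 3, mutB1 1, mutB1 2 or mutB1 3 (adjusted p up to 0.0228).

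All 6 subunits of the MCM helicase were higher in mutB1 than in control, 5 of 6 in FL and 4 of 6 in ΔSAP. Mcm2 read 11.02, 10.94 and 10.99 on the control arrays, 11.30, 11.32 and 11.39 on FL, 11.38, 11.40 and 11.43 on mutB1 and 10.99, 11.01 and 11.00 on ΔSAP. Mcm2 was high in FL and mutB1 and low in control and ΔSAP, with no overlap between these pairs of lines. It was higher than control by 0.42 ± 0.04 (adjusted p = 2.05e-05) in mutB1, and by 0.35 ± 0.04 (adjusted p = 4.62e-05) in FL, while ΔSAP differed from control by 0.02 ± 0.04 (adjusted p = 0.821). FL exceeded ΔSAP by 0.33 ± 0.04 (adjusted p = 0.000163), and ΔSAP lay below mutB1 by 0.41 (adjusted p = 2.33e-05). Mcm6 read 11.31, 11.26 and 11.35 on the control arrays, 11.54, 11.50 and 11.57 on FL, 11.66, 11.76 and 11.73 on mutB1 and 11.52, 11.56 and 11.53 on ΔSAP. For Mcm6 the control arrays were lowest, the mutB1 arrays highest, and FL and ΔSAP lay between and overlapped. The mutB1 difference from control was 0.41 ± 0.04 (adjusted p = 4.46e-05), and those of FL and ΔSAP were both 0.23 (adjusted p = 0.00161 and 0.00229). The lower calls against mutB1 were lost for FL without any single array except control 2, control 3, mutB1 1 or ΔSAP 2 (adjusted p up to 0.0296) and for ΔSAP without any single array except control 2, control 3, FL 3 or mutB1 1 (adjusted p up to 0.0297), and the ΔSAP call against control without control 2 or ΔSAP 2 (adjusted p up to 0.0113).

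Mcm3, Mcm4 and Mcm5 were higher than control in all 3 construct lines, by 0.25 to 0.32, 0.17 to 0.30 and 0.23 to 0.31. The Mcm4 call in FL (adjusted p = 0.00713) was lost without any single array except mutB1 1 (adjusted p up to 0.0326). Mcm7 had line means of 11.53 ± 0.05 for control, 11.50 ± 0.04 for FL, 11.77 ± 0.03 for mutB1 and 11.62 ± 0.03 for ΔSAP. It was higher than control in mutB1 (0.24 ± 0.04, adjusted p = 0.00135), with -0.02 in FL and 0.10 in ΔSAP, and FL lay below mutB1 by 0.27 (adjusted p = 0.000556).

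All 4 members of helicase activation, which turn the loaded helicase into a moving one, were higher in mutB1 than in control, 2 in FL (Mcm10 and Cdc45) and 1 in ΔSAP (Cdc45). Mcm10 read 10.01, 9.89 and 9.93 on the control arrays, 10.58, 10.61 and 10.58 on FL, 10.73, 10.71 and 10.64 on mutB1 and 10.08, 10.10 and 10.15 on ΔSAP. The FL and mutB1 arrays of Mcm10 stood far above control and ΔSAP, as they did for Mcm2. Mcm10 was higher than control by 0.75 ± 0.04 (adjusted p = 6.89e-07) in mutB1, by 0.65 ± 0.04 (adjusted p = 1.33e-06) in FL, and by 0.17 without passing the test in ΔSAP (adjusted p = 0.0174). FL minus ΔSAP was 0.48 ± 0.04 (adjusted p = 3.75e-05) and ΔSAP minus mutB1 was -0.58 ± 0.04 (adjusted p = 4.39e-06). Cdc45 read 9.56, 9.61 and 9.52 on the control arrays, 9.98, 9.91 and 9.96 on FL, 9.92, 9.88 and 9.84 on mutB1 and 9.88, 9.83 and 9.85 on ΔSAP, so that control was lowest and the construct lines lay close together. Cdc45 rose over control by 0.38, 0.32 and 0.29 in FL, mutB1 and ΔSAP (adjusted p = 3.12e-05, 0.000211 and 0.000359).

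Gins1 and Gins2, which encode subunits of GINS, were higher in mutB1 than in control and not called against control in FL or ΔSAP. Gins1 read 8.70, 8.70 and 8.70 on the control arrays, 8.87, 8.91 and 8.91 on FL, 9.31, 9.23 and 9.24 on mutB1 and 8.72, 8.98 and 8.90 on ΔSAP. All mutB1 arrays of Gins1 lay above every other array, and ΔSAP 1 was close to control. The mutB1 line exceeded control by 0.56 ± 0.06 (adjusted p = 7.76e-05), FL lay below mutB1 (-0.36 ± 0.06, adjusted p = 0.00113) and so did ΔSAP (-0.39 ± 0.06, adjusted p = 0.000778). Gins2 had line means of 9.51 ± 0.03 for control, 9.47 ± 0.04 for FL, 9.82 ± 0.05 for mutB1 and 9.54 ± 0.02 for ΔSAP, and mutB1 exceeded control by 0.31 ± 0.04 (adjusted p = 0.000254). FL and ΔSAP differed from control by -0.05 and 0.02 for Gins2 (adjusted p = 0.466 and 0.75), and FL minus mutB1 was -0.36 (adjusted p = 6.96e-05).

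**Figure D3:**
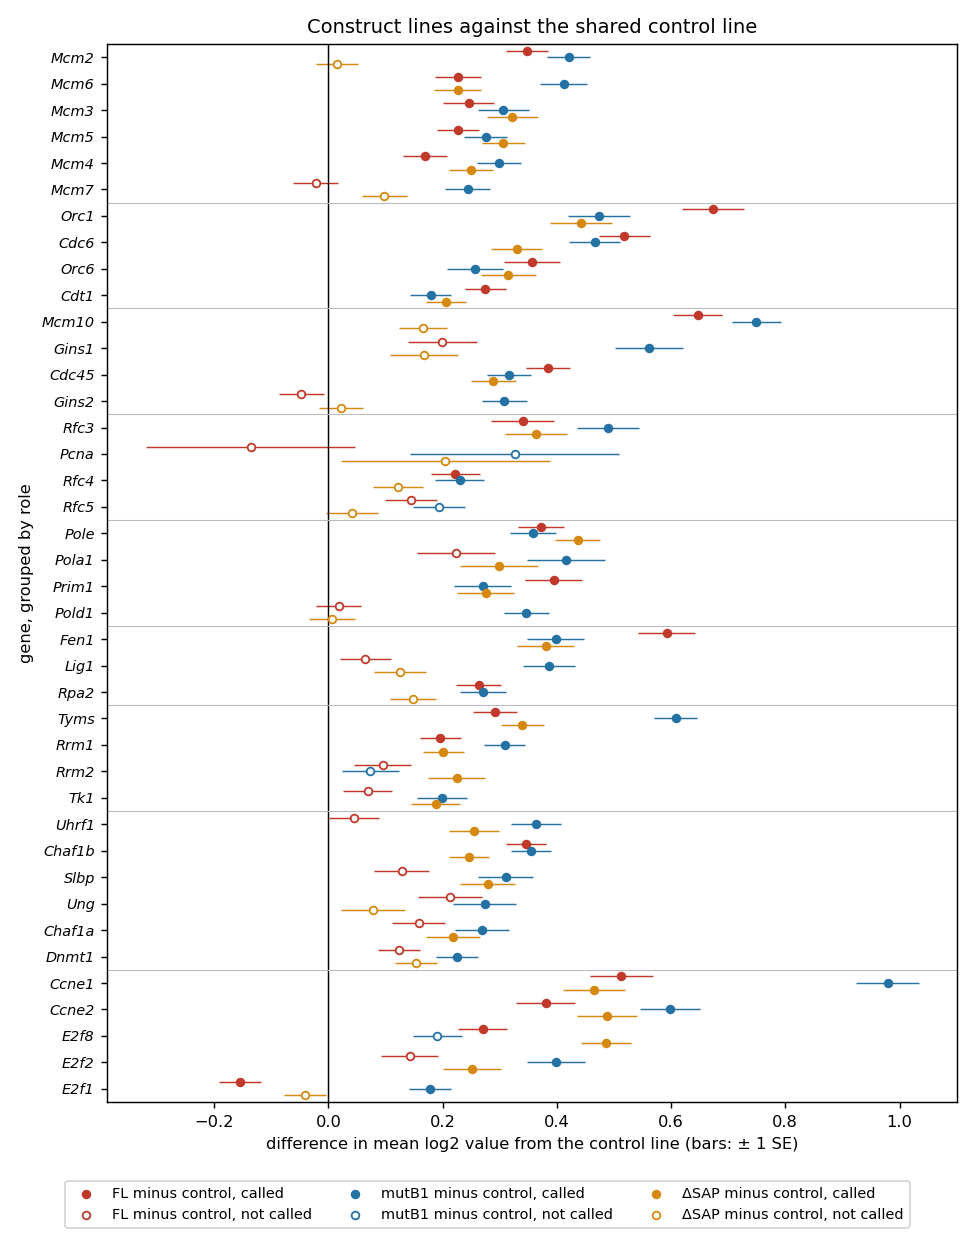
Difference in mean log2 value from the control line (x axis, bars ± 1 SE) for each of the 40 genes (y axis, grouped by role) in FL, mutB1 and ΔSAP. The 3 lines share the control arrays. The mutB1 points lie to the right of 0 for all 40 genes, up to 0.98 for Ccne1, and the ΔSAP points of Mcm2 (0.02) and Gins2 (0.02) lie close to 0.

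Of the 4 genes of the clamp and its loader, Rfc3 was higher than control in all 3 construct lines and Rfc4 in FL and mutB1. Rfc3 read 10.09, 10.09 and 10.11 on the control arrays, 10.46, 10.43 and 10.43 on FL, 10.58, 10.71 and 10.47 on mutB1 and 10.43, 10.47 and 10.48 on ΔSAP. The control arrays of Rfc3 agreed closely and lay below all others, and the mutB1 arrays spread the most. Its differences from control were 0.49 ± 0.05 (adjusted p = 0.000111) in mutB1, 0.36 in ΔSAP and 0.34 in FL (adjusted p = 0.000752 and 0.000806). Rfc4 differed from control by 0.23 in mutB1 and 0.22 in FL (adjusted p = 0.0034 and 0.00274), and by 0.12 in ΔSAP (adjusted p = 0.0707). The Rfc4 call was lost in mutB1 without control 2, control 3, mutB1 1 or mutB1 2 (adjusted p up to 0.0162) and in FL without control 2, control 3, FL 1 or FL 3 (adjusted p up to 0.0128). Rfc5 passed the test in no pair, with differences from control of 0.19, 0.14 and 0.04 in mutB1, FL and ΔSAP.

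Pcna read 12.12, 12.54 and 12.50 on the control arrays, 12.53, 12.48 and 11.75 on FL, 12.74, 12.70 and 12.70 on mutB1 and 12.58, 12.59 and 12.61 on ΔSAP, for the brighter of its 2 single-gene probe sets. FL 3 and control 1 stood apart from the other arrays of their lines, and the SD of the FL line, 0.44, was the largest of any member. Pcna, the sliding clamp, passed the test in no pair on that probe set. The other Pcna probe set was steadier: its mutB1 and ΔSAP arrays exceeded control by 0.25 and 0.26 (adjusted p = 0.00106 and 0.000714), and its FL arrays by 0.15 without passing the test (adjusted p = 0.0164). The probe sets of Pcna therefore gave different calls. Whether the brighter probe sets of Pcna and Tk1 also read pseudogenes or other near-identical copies was not tested, so the levels of both genes are uncertain. Tk1 and Slbp also have 2 probe sets each, and the dimmer Tk1 probe set kept the ΔSAP call against control (0.25, adjusted p = 0.00366) and not the mutB1 call (0.17, adjusted p = 0.0367), while the dimmer Slbp probe set kept both (0.36 in mutB1 and 0.29 in ΔSAP, adjusted p = 0.000415 and 0.00162).

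All 4 polymerase and primase genes were higher in mutB1 than in control, 3 in ΔSAP and 2 in FL. Pole read 10.51, 10.46 and 10.53 on the control arrays, 10.86, 10.85 and 10.91 on FL, 10.85, 10.89 and 10.84 on mutB1 and 10.92, 10.99 and 10.90 on ΔSAP. For Pole, the catalytic subunit of the leading-strand polymerase, control was lowest and every construct array lay above it. The differences from control were 0.44 ± 0.04 (adjusted p = 2.39e-05) in ΔSAP, 0.37 in FL and 0.36 in mutB1 (adjusted p = 4.78e-05 and 0.000109). Pola1 read 9.004, 8.92 and 8.97 on the control arrays, 9.15, 9.10 and 9.32 on FL, 9.30, 9.49 and 9.35 on mutB1 and 9.21, 9.32 and 9.26 on ΔSAP. Control arrays of Pola1, the catalytic subunit of polymerase alpha, were lowest, and the other lines overlapped. It was higher than control by 0.42 ± 0.07 (adjusted p = 0.00149) in mutB1, by 0.30 ± 0.07 (adjusted p = 0.00951) in ΔSAP, and by 0.22 in FL without passing the test (adjusted p = 0.0344). The ΔSAP call was lost without any single array except FL 2, FL 3 or mutB1 2 (adjusted p up to 0.0397).

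Prim1 read 9.66, 9.73 and 9.66 on the control arrays, 10.04, 10.04 and 10.14 on FL, 9.998, 9.99 and 9.86 on mutB1 and 9.92, 10.01 and 9.94 on ΔSAP. Prim1, the primase that makes RNA primers, was lowest in control and highest in FL, with mutB1 and ΔSAP overlapping. FL exceeded control by 0.39 ± 0.05 (adjusted p = 0.000148), and mutB1 and ΔSAP by 0.27 and 0.28 (adjusted p = 0.00307 and 0.0024). The mutB1 call of Prim1 was lost without control 1, control 3, mutB1 1 or mutB1 2 (adjusted p up to 0.0151), and the ΔSAP call without control 1, control 3 or ΔSAP 2 (adjusted p up to 0.0123). Pold1, the catalytic subunit of the lagging-strand polymerase, had line means of 9.56 ± 0.06 for control, 9.58 ± 0.03 for FL, 9.91 ± 0.02 for mutB1 and 9.57 ± 0.02 for ΔSAP, and only its mutB1 arrays stood apart. It was higher in mutB1 than in control by 0.35 ± 0.04 (adjusted p = 0.000132), than in FL (-0.33 ± 0.04, adjusted p = 0.000136, FL minus mutB1) and than in ΔSAP (-0.34 ± 0.04, adjusted p = 0.000131, ΔSAP minus mutB1).

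The 3 genes of single-strand binding, flap removal and ligation were all higher in mutB1 than in control, 2 in FL and 1 in ΔSAP. Fen1 read 8.79, 8.77 and 8.71 on the control arrays, 9.40, 9.26 and 9.39 on FL, 9.18, 9.15 and 9.13 on mutB1 and 9.15, 9.06 and 9.20 on ΔSAP. Fen1, the nuclease that trims lagging-strand flaps, was lowest in control and highest in FL without overlap, and mutB1 and ΔSAP shared a range between them. FL exceeded control by 0.59 ± 0.05 (adjusted p = 7.96e-06), mutB1 by 0.40 and ΔSAP by 0.38 (adjusted p = 0.000229 and 0.000287). Lig1 read 10.27, 10.11 and 10.24 on the control arrays, 10.30, 10.26 and 10.25 on FL, 10.57, 10.62 and 10.59 on mutB1 and 10.31, 10.34 and 10.35 on ΔSAP. Lig1, the ligase that seals the fragments, had its mutB1 arrays above all others, while FL overlapped control and ΔSAP lay just above it. The mutB1 difference from control was 0.39 ± 0.05 (adjusted p = 0.000148), with 0.07 in FL and 0.13 in ΔSAP (adjusted p = 0.37 and 0.0743), and FL minus mutB1 was -0.32 ± 0.05 (adjusted p = 0.000376). Rpa2, a subunit of the single-strand binding complex, was higher than control in mutB1 and FL (0.27 and 0.26, adjusted p = 0.000754 and 0.000562) and was not called in ΔSAP (0.15, adjusted p = 0.0235).

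All 4 nucleotide supply genes were higher in ΔSAP than in control, 3 in mutB1 and 2 in FL. Tyms read 10.44, 10.38 and 10.38 on the control arrays, 10.70, 10.67 and 10.71 on FL, 11.01, 11.06 and 10.96 on mutB1 and 10.77, 10.72 and 10.74 on ΔSAP. Tyms, thymidylate synthase, was lowest in control and highest in mutB1, with no overlap of either with FL or ΔSAP. It was higher than control by 0.61 ± 0.04 (adjusted p = 1.45e-06) in mutB1, 0.34 in ΔSAP and 0.29 in FL (adjusted p = 0.000101 and 0.000188), and mutB1 exceeded FL as well (-0.32 ± 0.04, adjusted p = 0.000131, FL minus mutB1). Of the reductase subunits, Rrm1 was higher than control by 0.31 in mutB1 and by 0.20 in both FL and ΔSAP (adjusted p = 0.000142, 0.00186 and 0.00215), the last lost without ΔSAP 2 (adjusted p up to 0.0109). Rrm2 was called in ΔSAP (0.22 ± 0.05, adjusted p = 0.0082), lost without any single array except FL 3, mutB1 1 or mutB1 2 (adjusted p up to 0.0329), and differed from control by 0.10 in FL and 0.07 in mutB1. Tk1, thymidine kinase, was higher than control by 0.20 in mutB1 and 0.19 in ΔSAP (adjusted p = 0.00819 and 0.00998), and the calls were lost in mutB1 without any single array except mutB1 2 or ΔSAP 2 (adjusted p up to 0.0365) and in ΔSAP without any single array except mutB1 2 or ΔSAP 2 (adjusted p up to 0.042).

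All 6 genes of chromatin assembly, DNA methylation, repair and histone mRNA were higher in mutB1 than in control and had their highest mean there, 4 were higher in ΔSAP, and Chaf1b alone was called in FL. Uhrf1 read 10.28, 10.18 and 10.18 on the control arrays, 10.25, 10.25 and 10.28 on FL, 10.62, 10.60 and 10.52 on mutB1 and 10.50, 10.42 and 10.50 on ΔSAP. Uhrf1, which brings maintenance methylation to replicated DNA, was high in mutB1 and ΔSAP and low in control and FL, with no overlap between these pairs of lines. It was higher than control by 0.36 ± 0.04 (adjusted p = 0.000177) in mutB1 and 0.26 in ΔSAP (adjusted p = 0.00166), and FL differed from control by 0.04 (adjusted p = 0.547). FL minus mutB1 was -0.32 ± 0.04 (adjusted p = 0.000316) and FL minus ΔSAP was -0.21 ± 0.04 (adjusted p = 0.00672), the latter lost without some arrays as given above.

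Chaf1b, a subunit of the chromatin assembly factor that places histones behind the fork, was higher than control by 0.35, 0.35 and 0.25 in FL, mutB1 and ΔSAP (adjusted p = 2.8e-05, 4.13e-05 and 0.000478). Its partner Chaf1a differed by 0.27 in mutB1 and 0.22 in ΔSAP (adjusted p = 0.0021 and 0.00655), and by 0.16 in FL (adjusted p = 0.0291). The Chaf1a calls were lost in mutB1 without mutB1 1 (adjusted p up to 0.0105) and in ΔSAP without any single array except control 1, FL 3, mutB1 3 or ΔSAP 1 (adjusted p up to 0.0284). Slbp, which binds the stem loop of histone mRNA, was higher in mutB1 and ΔSAP by 0.31 and 0.28 (adjusted p = 0.000981 and 0.00177). The maintenance methyltransferase Dnmt1 and the uracil glycosylase Ung were higher than control in mutB1, by 0.23 and 0.27 (adjusted p = 0.00146 and 0.00557), and were not called in FL or ΔSAP. The Ung call was lost without any single array except control 1, FL 1, FL 3, ΔSAP 1 or ΔSAP 2 (adjusted p up to 0.0226).

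Of the 5 E2F and cyclin E genes, 4 were higher than control in mutB1, 4 in ΔSAP and 3 in FL. Ccne1 read 9.68, 9.46 and 9.60 on the control arrays, 10.14, 10.09 and 10.06 on FL, 10.51, 10.62 and 10.56 on mutB1 and 10.04, 10.04 and 10.06 on ΔSAP. The control arrays of Ccne1, the cyclin that opens S phase with Cdk2, were lowest, the mutB1 arrays highest, and FL and ΔSAP overlapped. Ccne1 had the largest difference of any member in any pair: mutB1 exceeded control by 0.98 ± 0.05 (adjusted p = 6.29e-07), which is 1.97-fold. FL and ΔSAP exceeded control by 0.51 and 0.47 (adjusted p = 4.62e-05 and 0.000143) and lay below mutB1. FL minus mutB1 was -0.47 ± 0.05 (adjusted p = 0.000112) and ΔSAP minus mutB1 was -0.51 ± 0.05 (adjusted p = 6.84e-05). Ccne2 read 8.91, 8.81 and 8.89 on the control arrays, 9.23, 9.29 and 9.23 on FL, 9.42, 9.47 and 9.52 on mutB1 and 9.27, 9.35 and 9.45 on ΔSAP. Ccne2, the second cyclin E, was lowest in control, and ΔSAP overlapped both other lines. Its differences from control were 0.60 ± 0.05 (adjusted p = 1.9e-05) in mutB1, 0.49 in ΔSAP and 0.38 in FL (adjusted p = 7.5e-05 and 0.00027).

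E2f8 read 10.86, 10.84 and 10.80 on the control arrays, 11.07, 11.10 and 11.13 on FL, 11.04, 10.97 and 11.06 on mutB1 and 11.25, 11.37 and 11.34 on ΔSAP. E2f8, an atypical E2F known as a repressor of E2F targets, was lowest in control and highest in ΔSAP, without overlap with any other line. ΔSAP exceeded control by 0.49 ± 0.04 (adjusted p = 1.88e-05) and mutB1 by 0.30 ± 0.04 (adjusted p = 0.000605), FL exceeded control by 0.27 (adjusted p = 0.000757), and mutB1 minus control just missed the threshold (0.19, adjusted p = 0.0101). E2f2 read 6.99, 7.07 and 7.05 on the control arrays, 7.17, 7.25 and 7.11 on FL, 7.49, 7.36 and 7.46 on mutB1 and 7.25, 7.28 and 7.33 on ΔSAP. The dimmest member, E2f2, an activating E2F, was lowest in control and highest in mutB1. It was higher than control by 0.40 ± 0.05 (adjusted p = 0.000253) in mutB1 and 0.25 in ΔSAP (adjusted p = 0.00448), and FL lay below mutB1 (-0.26 ± 0.05, adjusted p = 0.00337). The ΔSAP call of E2f2 was lost without control 1, control 2, control 3, ΔSAP 2 or ΔSAP 3 (adjusted p up to 0.0223) and the call of FL against mutB1 without FL 1, FL 3, mutB1 1 or mutB1 3 (adjusted p up to 0.0161).

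E2f1, the founding activating E2F, was lower in FL than in control. Its line means were 10.13 ± 0.03 for control, 9.98 ± 0.05 for FL, 10.31 ± 0.04 for mutB1 and 10.09 ± 0.01 for ΔSAP, with FL the lowest and mutB1 the highest. FL minus mutB1 was -0.33 ± 0.04 (adjusted p = 7.52e-05), FL minus control was -0.15 ± 0.04 (adjusted p = 0.00954) and mutB1 minus control was 0.18 ± 0.04 (adjusted p = 0.00614). The mutB1 call was lost without any single array except FL 2 or FL 3 (adjusted p up to 0.0269), and ΔSAP minus control was -0.04 (adjusted p = 0.496).

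**Figure D4:**
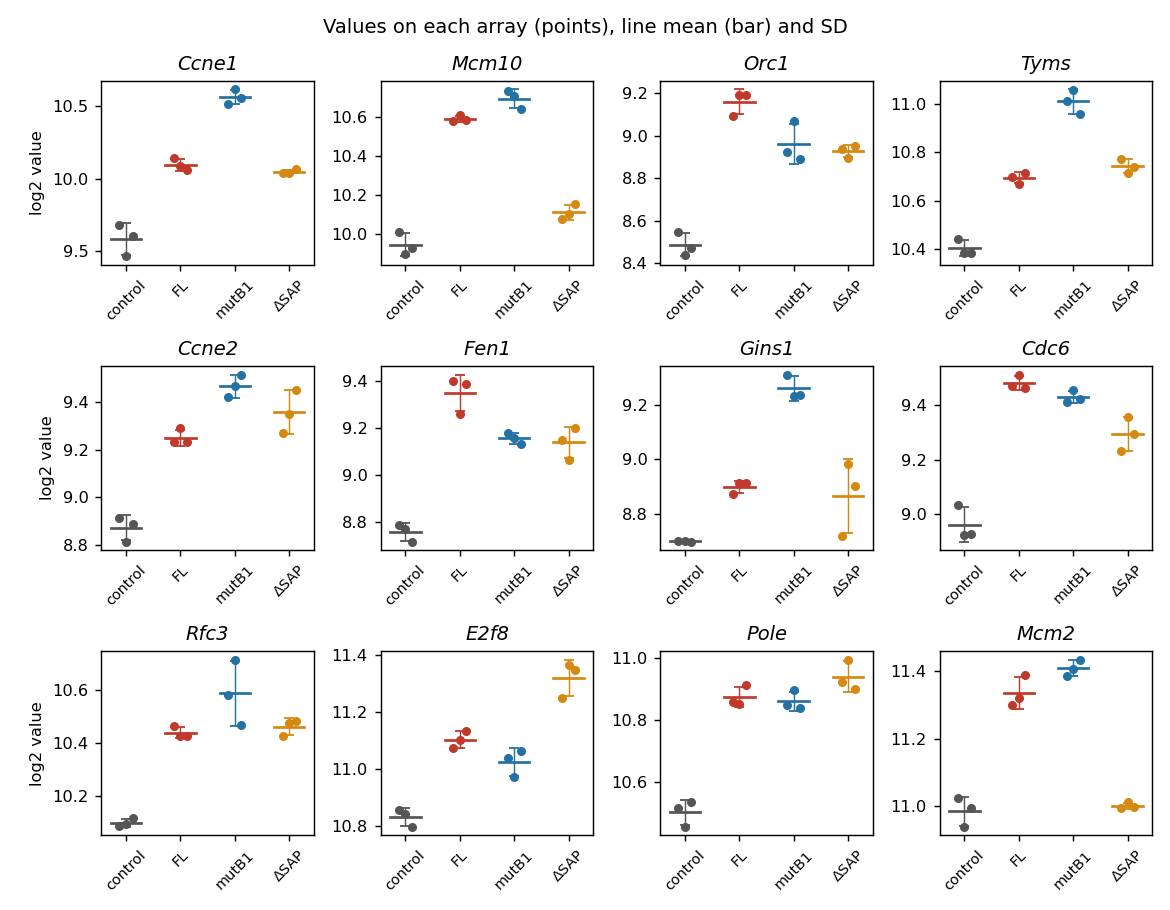
Log2 values (y axis) of 12 members on each array (points) by line (x axis), with the line mean (bar) and SD (n = 3 arrays per line). These are the 12 members with the largest called differences. Ccne1 runs from 9.46 on the lowest control array to 10.62 on the highest mutB1 array, and Mcm10 and Mcm2 are high in FL and mutB1 and low in control and ΔSAP.

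Among the other genes of the pathway more were higher than lower in each comparison with control. Of a list of 70 further replication and E2F genes, 67 had a probe set of their own. In mutB1 against control 44 of the 67 were higher and 2 lower, in FL against control 37 and 5, and in ΔSAP against control 26 and 5, with median differences of 0.29, 0.20 and 0.17. These are 65.7% higher and 2.99% lower in mutB1, 55.2% and 7.46% in FL, and 38.8% and 7.46% in ΔSAP, where the bright genes had 15.1% and 18.4%, 22.2% and 27.3%, and 16.4% and 20.7%. In FL against mutB1 10 were higher and 17 lower (14.9% and 25.4%), beside 20.9% and 23.1% of the bright genes. In FL against ΔSAP 10 were higher and 5 lower (14.9% and 7.46%, bright genes 15.3% and 15.2%), and in ΔSAP against mutB1 3 and 16 (4.48% and 23.9%, bright genes 16.9% and 20.2%). Among the 26 firing and fork genes, 19 were higher in mutB1, 16 in FL and 10 in ΔSAP than in control, and 1 was lower, in ΔSAP. Of these, Mtbp read 10.68, 10.68 and 10.62 on the control arrays, 11.22, 11.27 and 11.22 on FL, 11.25, 11.35 and 11.25 on mutB1 and 10.93, 10.99 and 10.95 on ΔSAP. Mtbp, an origin firing factor, was high in FL and mutB1, and exceeded control by 0.63 in mutB1, 0.58 in FL and 0.30 in ΔSAP (adjusted p = 1.89e-06, 2.18e-06 and 0.000386). FL exceeded ΔSAP for Mtbp by 0.28 ± 0.04 (adjusted p = 0.000822). Dbf4, the activator of the Cdc7 kinase, exceeded control by 0.61 ± 0.05 (adjusted p = 7.52e-06) in FL. Its line means were 10.15 for control, 10.75 for FL, 10.58 for mutB1 and 10.745 for ΔSAP. Gins3, a further GINS subunit, exceeded control by 0.59 ± 0.05 in ΔSAP and 0.46 ± 0.05 in FL (adjusted p = 2.38e-05 and 8.28e-05). In mutB1 it did so by 0.16 without passing the test (adjusted p = 0.0606). Gins4, the remaining subunit, passed the test in no pair.

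The 8 other origin and licensing genes had 4 higher in mutB1, 3 in FL and 1 in ΔSAP, with 2 lower in FL and 1 in ΔSAP. Orc2 read 9.78, 9.77 and 9.76 on the control arrays, 10.50, 10.55 and 10.56 on FL, 10.20, 10.24 and 10.18 on mutB1 and 10.18, 10.28 and 10.23 on ΔSAP. Orc2 was lowest in control and highest in FL without overlap, as Orc1 was, and FL exceeded control, mutB1 and ΔSAP by 0.77, 0.33 and 0.30 (adjusted p = 1.64e-07, 9.08e-05 and 0.000315). Mcm8, a helicase related to the MCM subunits, and Gmnn, the Cdt1 inhibitor geminin, were higher in mutB1 than in control by 0.45 and 0.42 (adjusted p = 0.00131 and 0.00223). In control, FL, mutB1 and ΔSAP, Mcm8 had line means of 8.11, 8.48, 8.56 and 8.31. Those of Gmnn were 6.49, 6.69, 6.90 and 6.74. Among 6 other nucleotide genes, Dck, a salvage kinase, was higher than control by 0.73 ± 0.05 (adjusted p = 1.76e-06) in mutB1. Cad, which starts pyrimidine synthesis, and Shmt1, a folate enzyme, were higher in FL by 0.49 and 0.44 (adjusted p = 2.32e-05 and 9.17e-05). In control, FL, mutB1 and ΔSAP, Dck had line means of 9.05, 9.38, 9.78 and 9.60. Those of Cad were 9.76, 10.24, 9.91 and 10.06, and those of Shmt1 were 9.86, 10.30, 10.26 and 9.87. Of 17 other S phase and repair genes, 15 were higher in mutB1, 11 in ΔSAP and 10 in FL than in control. Bard1 exceeded control by 0.68 ± 0.04 (adjusted p = 2.35e-06) in ΔSAP, and its partner Brca1 and the nuclease Exo1 exceeded it by 0.57 and 0.57 in FL (adjusted p = 6.14e-06 and 2.06e-06). Each had a higher mean than control in every construct line. In control, FL, mutB1 and ΔSAP, Bard1 had line means of 9.07, 9.60, 9.52 and 9.75. Those of Brca1 were 9.02, 9.59, 9.40 and 9.36, and those of Exo1 were 9.17, 9.74, 9.54 and 9.49.

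The 10 other E2F, DP and pocket protein genes went both ways, with 4 higher and 3 lower in FL, 3 and 2 in mutB1, and 2 and 3 in ΔSAP against control. Rb1 read 10.28, 10.24 and 10.22 on the control arrays, 9.34, 9.23 and 9.30 on FL, 9.95, 10.01 and 9.99 on mutB1 and 9.74, 9.72 and 9.73 on ΔSAP. Rb1, the retinoblastoma protein that restrains E2F, was lower in every construct line than in control without overlap: it fell by 0.95 ± 0.04 in FL, by 0.52 in ΔSAP and by 0.26 in mutB1 (adjusted p = 3.04e-08, 4.28e-06 and 0.000586). Rbl2 read 9.32, 9.31 and 9.30 on the control arrays, 8.60, 8.59 and 8.72 on FL, 9.11, 9.20 and 9.10 on mutB1 and 8.97, 9.16 and 9.03 on ΔSAP. Rbl2, the pocket protein p130, fell by 0.67 in FL and by 0.25 in ΔSAP (adjusted p = 8.04e-06 and 0.00797), and its mutB1 difference of -0.17 did not pass (adjusted p = 0.0642). The other pocket protein listed, Rbl1, was highest in mutB1. Its line means were 10.30 for control, 10.27 for FL, 10.645 for mutB1 and 10.36 for ΔSAP (limma F test, adjusted p = 3.78e-05). E2f6, a repressive E2F, was higher in ΔSAP than in mutB1 by 0.60 ± 0.05 (adjusted p = 1.03e-05). The control mean of E2f6, 9.13, lay between 8.71 in mutB1 and 9.31 in ΔSAP, and FL had 8.97.

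Markers of proliferation and of cell type moved between the same lines. Of 5 proliferation markers, 4 were higher in mutB1 than in control, with 0.18 for Mki67, 0.20 for Top2a, 0.19 for Cdk1 and 0.23 for Plk1 (adjusted p = 0.00158, 0.0031, 0.00415 and 0.000854), and Birc5 differed by -0.12 (adjusted p = 0.0552). In ΔSAP 1 of 5, Cdk1, was higher, and in FL 0 were higher and 1, Mki67, was lower (-0.21 ± 0.03, adjusted p = 0.000443), with 3 of the 5 past an unadjusted limma p of 0.05 in either direction. The mean log2 value over the 5 markers ran from 11.35 to 11.41 on the control arrays, 11.38 to 11.40 on FL, 11.50 to 11.52 on mutB1 and 11.45 to 11.48 on ΔSAP. FL thus overlapped control on this mean, over 5 markers that went both ways. Mki67 and Top2a had line means of 11.54 and 11.89 in FL against 11.75 and 11.94 in control. Birc5, Cdk1 and Plk1 had 9.84, 11.93 and 11.74 in FL against 9.69, 11.83 and 11.68 in control.

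Of 6 mammary epithelial markers, 5 were lower in mutB1 than in control, among them Cdh1, Epcam, Krt7 and Krt19, with differences of -2.38 to -1.58, and 4 were higher in ΔSAP. In FL against control, Cdh1 and Krt19 were higher (0.65 and 0.61) and Krt8 and Krt18 lower (-0.27 and -0.33). The epithelial marker mean ran from 10.54 to 10.59 in control, 10.63 to 10.67 in FL, 9.22 to 9.24 in mutB1 and 11.23 to 11.27 in ΔSAP. Of 7 fibroblast markers 1, Fbln1, was higher than control in each construct line, by 2.61 in mutB1, 1.07 in ΔSAP and 0.99 in FL. Another, Pdgfra, was lower than control in FL (-1.38) and ΔSAP (-1.03) and did not pass the test in mutB1 (0.11, adjusted p = 0.303). The fibroblast marker mean ran from 7.24 to 7.29 in mutB1 and from 6.74 to 6.98 over the other lines. The leukocyte and endothelial marker means ran from 5.46 to 5.66 and from 4.75 to 4.95 over all arrays. Of the 6 leukocyte markers 1, Cd68, was called: its line means were 8.91 for control, 9.58 for FL, 8.53 for mutB1 and 9.33 for ΔSAP, and it was higher in FL than in control (0.67, adjusted p = 0.000489) and higher in FL and ΔSAP than in mutB1 (adjusted p = 2.63e-05 and 0.000213). Of the 5 endothelial markers 1, Tek, was lower in ΔSAP than in control (-0.21, adjusted p = 0.00952). The part of the proliferation, epithelial, fibroblast and leukocyte markers in the members' differences was not tested.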

How the data were processed

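RNA was measured on 12 Affymetrix Mouse Gene 1.0 ST arrays. The authors deposited 1 log2 value per array and probe set, computed with RMA in the affy package of Bioconductor 2.4, per the series design text, under R 2.10.0, per the submitters' processing notes. RMA normalizes each array to a common distribution, so a shift of all genes together would not be seen, and it gives no detection call. The sources used here give no probe set definition, genome build or array batch. No depth applies to arrays, and their number, 3 per line, limits the precision. The labels do not say whether the arrays of a line came from cultures grown on separate days, so p-values may measure technical spread only.

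Of 34760 probe sets, 21640 had exactly 1 gene symbol in the platform annotation, 1321 several and 11799 none. Symbols were updated through Entrez identifiers with RefSeq (GRCm38.p6), which matched 21553. Line means were compared with limma 3.58.1 in R 4.3.3, in 1 fit of all 12 arrays with Benjamini-Hochberg adjusted p-values over the 34760 probe sets. The scripts were tested on simulated data. Members called in at least 1 of the 6 pairs were ordered by their largest difference, and the first 20 are given on every array, the others by line means or differences. Of the other pathway genes the 3 with the largest difference per list are named, and Gins4 and Rbl1 in addition. The members and lists were chosen with earlier results of these data known. List genes without a probe set of their own were not analysed here. Alternatives covered the replicate block, centring, quantile normalization, filters on low values, the arrays in the fit, the variance model, probe set averaging, the threshold and each array left out.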

Additional observations from a re-analysis of the deposited data

How the results depend on the processing

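Of the 112 called differences between lines, 68 were kept under all 21 alternatives and 88 without each single array, and none changed direction. The replicate numbers did not pair the arrays: deviations of same-numbered arrays correlated at -0.205 to 0.168 over 18 pairs, 2 of them over 0.1, and 3 of 12 arrays correlated best with their own number. With the replicate block, 0 members were lower in FL against ΔSAP and 0 in FL against control, and no other count moved by over 1.5 times. Centring each array on its median gave median differences of -0.15 in FL against mutB1, -0.0607 in FL against ΔSAP and 0.17 in FL against control, with 1 member lower in FL against ΔSAP, 0 lower in FL against control and 16 higher in ΔSAP against control. In a fit of only the 6 arrays compared, 0 members were lower in FL against ΔSAP, 0 lower in FL against control, 11 higher in ΔSAP against control, and 0 higher and 6 lower in ΔSAP against mutB1. That fit has fewer arrays. Further quantile normalization gave 1 member higher in FL against mutB1 and 4 in FL against ΔSAP. A mean log2 value of at least 6 gave 2 and 5, an intensity trend with robust eBayes 1 and 5, and an adjusted p of at most 0.05 gave 2 and 5. The causes were not tested beyond these constructions. Leaving out 1 array at a time gave 0 to 1 members higher in FL against mutB1 (1 without FL 2 or mutB1 2), 0 to 2 lower in FL against ΔSAP, 0 to 1 lower in FL against control, and a median difference of 0.20 to 0.24 in FL against control (0.20 without control 2). It gave 28 to 35 members higher in mutB1 against control, 20 to 25 in ΔSAP and 21 to 23 in FL, and 31 to 36 past the F test.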
